A study of Mus musculus with 88 samples.

Results

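A set of 8 genes, for proteins that repress transcription or restrain signalling, was followed through transfected mouse embryonic stem cells (mESCs) and late 2-cell embryos. They are Hes1 and Hes6, the family Id1, Id2, Id3 and Id4, and the inhibitory SMADs Smad6 and Smad7. The genes were chosen by symbol, with earlier results of these data known. Each symbol stood for 1 of the 55364 genes in each table of transcript abundance. Values are TPM (transcript abundance scaled to a fixed total), a unit that corrects each library for its size and each gene for its length, so levels can be set side by side between genes. On GRCm38.p6, Hes1 lies at chr16:30065357-30067796, Hes6 at chr1:91411483-91414038, Id1 at chr2:152736251-152737410, Id2 at chr12:25093799-25096092, Id3 at chr4:136143822-136145392, Id4 at chr13:48261116-48266028 and Smad6 at chr9:63953076-64022085, and all 8 are annotated as protein-coding.

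The mESCs were male, wild-type and of hybrid C57BL/6 / 129 background. They grew on gelatin in medium with LIF, 15% serum, 0.5 uM of the MEK inhibitor PD0325901 and 3 uM of the GSK3 inhibitor CHIR99021, and received plasmids by lipofection. Groups of 2 libraries each carried Obox3 (ES_Obox3), Dux (ES_Dux), Obox5 (ES_Obox5), Obox6 (ES_Obox6) or an empty plasmid (ES_Empty). The second library of ES_Obox3, ES_Dux and ES_Obox5 is numbered 3 in the table, a number the labels of these groups do not hold, and is called replicate 3. A further 9 groups had 1 library each, for Obox1, Obox2, Obox4ps27, Obox4ps35, Obox7, Obox8, Crxos1, Crxos2 and Crxos3. Obox genes and Dux encode homeodomain proteins of the early mouse embryo, and the series asks what part Obox3 plays when the embryonic genome is switched on and totipotency is acquired. The embryos were late 2-cell embryos of wild-type BDF1 background, in 3 groups of 2 libraries. Those made by somatic cell nuclear transfer (SCNT), with a cumulus cell nucleus in an enucleated oocyte, were injected with 10 ng/µl of mRNA for Obox3 (SCNT_Obox3_L2C) or for EGFP (SCNT_EGFP_L2C). Those made by intracytoplasmic sperm injection (ICSI_L2C) came from BDF1 x BDF1 gametes.

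Hes proteins are basic helix-loop-helix repressors that bind N box and E box DNA and recruit Groucho corepressors. Hes1 is a classical target of Notch signalling and also responds to other signals in stem cells, and Hes6 is a relative that inhibits Hes1 in mouse neural cells. Id proteins have the helix-loop-helix but no DNA-binding region, so they pair with E proteins and keep them off DNA. Id1 and Id3 are direct targets of BMP and SMAD signalling, and Id1 helps mESCs to stay undifferentiated. Smad6 and Smad7 are induced by the same signals and close a negative feedback loop, Smad6 mainly on BMP receptors and Smad7 on both BMP and TGF-beta receptors.

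From the RefSeq promoter table (GRCm38.p6), windows of 5 of the 8 genes were searched, namely Hes6, Id2, Id3, Id4 and Smad6. The table had no entry for Hes1 and Id1, and Smad7 was left out of the search. Because Id genes moved in different directions in the embryos described below, the 250 bases before the start of Id2 (chr12:25096093-25096342, minus strand), Id3 (chr4:136143572-136143821, plus strand) and Id4 (chr13:48260866-48261115, plus strand) are shown 5′ to 3′ on the gene's strand. Capitals mark any of 5 motifs searched on both strands.
Id2: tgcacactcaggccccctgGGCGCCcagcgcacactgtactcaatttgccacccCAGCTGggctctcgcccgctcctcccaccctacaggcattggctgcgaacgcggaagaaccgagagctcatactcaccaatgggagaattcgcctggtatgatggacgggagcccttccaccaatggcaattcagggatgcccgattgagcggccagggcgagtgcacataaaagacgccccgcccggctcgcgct
Id3: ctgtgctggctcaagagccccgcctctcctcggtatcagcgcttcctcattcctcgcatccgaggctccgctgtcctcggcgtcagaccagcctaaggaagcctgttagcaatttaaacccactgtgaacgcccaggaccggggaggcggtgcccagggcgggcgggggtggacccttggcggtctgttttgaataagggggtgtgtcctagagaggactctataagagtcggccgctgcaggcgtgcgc
Id4: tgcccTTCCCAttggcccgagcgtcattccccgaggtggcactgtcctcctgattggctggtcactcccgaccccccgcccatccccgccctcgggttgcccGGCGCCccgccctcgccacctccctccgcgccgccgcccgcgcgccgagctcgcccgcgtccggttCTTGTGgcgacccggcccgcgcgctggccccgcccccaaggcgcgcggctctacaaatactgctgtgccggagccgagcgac
The motifs were TAATCC (the core of Otx and Crx homeodomain sites), CACNAG (N box), CANNTG (E box), GGCGCC (a GC-rich SMAD site) and TGGGAA (RBPJ core). No match of 1 motif overlapped that of another in these windows. Positions are given relative to the start, negative before it, for the first base of the match. GGCGCC stood at -231 in Id2 and at -148 in Id4, and was not in the Id3 window. It was in 11.9% of the 32851 promoter windows of 300 bases in the table, which run from 250 bases before to 50 after the start. Id4 also held TGGGAA, on the opposite strand, at -245, a motif in 25.6% of windows. An E box lay at -196 in Id2, and E boxes were in 72.3% of windows. N boxes, in 42.5% of windows, lay at -82 in Id4, as CTTGTG, and at 17, past the bases shown, in Id2. None of the 5 motifs was in the Id3 window. TAATCC, in 7.06% of windows, was in none of the windows of these 5 genes. The upstream window of Hes6 held 3 E boxes, its second annotated window held 1 E box and 2 N boxes, and Smad6 held 1 E box.

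In their own libraries the introduced genes had Duxf3 (the Dux copy listed) at 1548 and 1979 TPM, Obox5 at 971 and 933 TPM, and Obox6 at 2031 and 1959 TPM. Obox3 stood at 1.75 and 1.59 TPM in its libraries and its near-identical copy Obox3-ps5 at 450.7 and 262.8 TPM, and both were at 0 in ES_Empty. All of 10 stem cell markers were at 1 TPM or more in every mESC group, and their sum was 1182 to 1553 TPM in ES_Obox3, 942 to 1005 in ES_Dux, 1691 to 1761 in ES_Obox5, 1561 to 1756 in ES_Obox6 and 2155 to 2498 in ES_Empty. The sum of 10 late 2-cell genes was 18.3 to 23.3 TPM in ES_Obox3, 2576 to 2892 in ES_Dux, 27.1 to 28.0 in ES_Obox5, 15.7 to 15.8 in ES_Obox6 and 0.448 to 5.92 in ES_Empty, where Tcstv3, Tdpoz4 and Usp17lc were at 0. The sum of 6 primitive endoderm genes, mostly Gata4 in ES_Obox3 and ES_Obox5, was 16.0 to 27.0 TPM in ES_Obox3, 0.802 to 1.05 in ES_Dux, 21.2 to 22.9 in ES_Obox5, 13.1 to 14.3 in ES_Obox6 and 0.707 to 1.54 in ES_Empty. The sum of 6 trophoblast genes, mostly Krt18 in ES_Obox3, ES_Obox5 and ES_Obox6, was 40.5 to 42.6 TPM in ES_Obox3, 9.0 to 12.9 in ES_Dux, 42.6 to 52.1 in ES_Obox5, 68.5 to 96.6 in ES_Obox6 and 22.8 to 26.9 in ES_Empty, with Cdx2 at 0 in ES_Obox6. Krt18 alone averaged 32.9 TPM in ES_Obox3, 34.6 in ES_Obox5 and 57.7 in ES_Obox6, while the top gene in ES_Empty was Eomes at 7.95. At 1 TPM or more were 3 of the 6 genes in ES_Obox3 and in ES_Obox5, and 4 in ES_Obox6 and in ES_Empty. The higher sums were thus not shared by the whole list. The sum of 7 fibroblast and mesenchyme genes, mostly Vim, was 6.07 to 10.8 TPM in ES_Obox3, 20.7 to 27.2 in ES_Dux, 14.0 to 14.1 in ES_Obox5, 18.6 to 20.7 in ES_Obox6 and 35.6 to 51.5 in ES_Empty, and none of the 7 was at 0 in all libraries of a group. The part of these markers in the differences below was not tested. In bulk RNA, fewer cells of a type and less RNA per cell cannot be told apart.

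In ES_Empty the 8 genes spanned a wide range of levels. Smad7 led at 46.7 ± 0.507 TPM (SD, n = 2), ahead of Id1 at 15.7 ± 2.98, Hes1 at 10.3 ± 2.83, Id3 at 6.94 ± 0.58 and Hes6 at 4.49 ± 0.579. Near the floor were Smad6 at 2.00 ± 0.378 TPM, Id4 at 1.67 ± 0.373 and Id2 at 1.53 ± 0.924. On a 1-kb gene, 1 read was worth 0.136 to 0.441 TPM in the mESC libraries, so the lowest of these values rest on few reads.

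Against ES_Empty, 7 of the 8 genes fell in ES_Obox3, all but Id2, where 13.6% of the 20355 genes tested were called lower and 4.67% higher. Calls here and below needed adjusted p under 0.05 (limma, Benjamini-Hochberg over all genes) together with a log2 fold change of 1 or more in size, on the log2(TPM + 1) scale. In ES_Dux 6 of the 8 fell, against 44.4% of all genes lower and 4.12% higher. Smad6, counted in both groups, reached 1 TPM only in ES_Empty among the replicated groups. It entered the test through the group where it was high, so its calls add no support. In ES_Obox5 4 fell, Hes1, Hes6, Id1 and Smad7, against 5.47% lower and 4.79% higher. In ES_Obox6 Id1 fell and Id4 rose, against 1.99% lower and 2.39% higher. These shares depend on single libraries. In ES_Obox3 the share lower was 21.4% without ES_Obox3 replicate 1, where 6 of the 8 genes fell, and 7.48% without ES_Obox3 replicate 3, where 5 did. With any 1 library left out the share lower ran from 39.8 to 47.1% in ES_Dux, from 2.25% (without ES_Empty replicate 1) to 5.89% in ES_Obox5 and from 0.489% (without ES_Empty replicate 1) to 2.36% in ES_Obox6. All 8 genes were tested in each of these comparisons, which share the ES_Empty libraries. Since the 8 were chosen with earlier results known, their counts here and below are descriptions, not a test against the shares of all genes. Whether the 2 replicates of a group came from separate cultures is not stated in the labels, so their spread, and the p-values resting on it, may be technical.

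TPM add up to the same total in every library, so very abundant transcripts in 1 library lower the values of all others in it. The median log2 fold change of all genes tested was -0.42 in ES_Obox3, -0.97 in ES_Dux, -0.20 in ES_Obox5 and -0.09 in ES_Obox6. The median of the 8 genes was -1.38 in ES_Obox3, -1.37 in ES_Dux, -1.22 in ES_Obox5 and -0.42 in ES_Obox6. When libraries were put on 1 scale by median ratios, the genes called lower were Hes1, Hes6 and Smad7 in ES_Obox3, Smad7 in ES_Dux, and the same 4 genes as before in ES_Obox5. Under that scaling 3.75% of all genes were lower and 7.77% higher in ES_Obox3, 2.14% lower and 6.98% higher in ES_Dux, and 2.39% lower and 6.09% higher in ES_Obox5. In ES_Obox6 Id4 alone of the 8 was called, higher, with 2.8% of all genes higher and 1.32% lower.

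**Figure D1:**
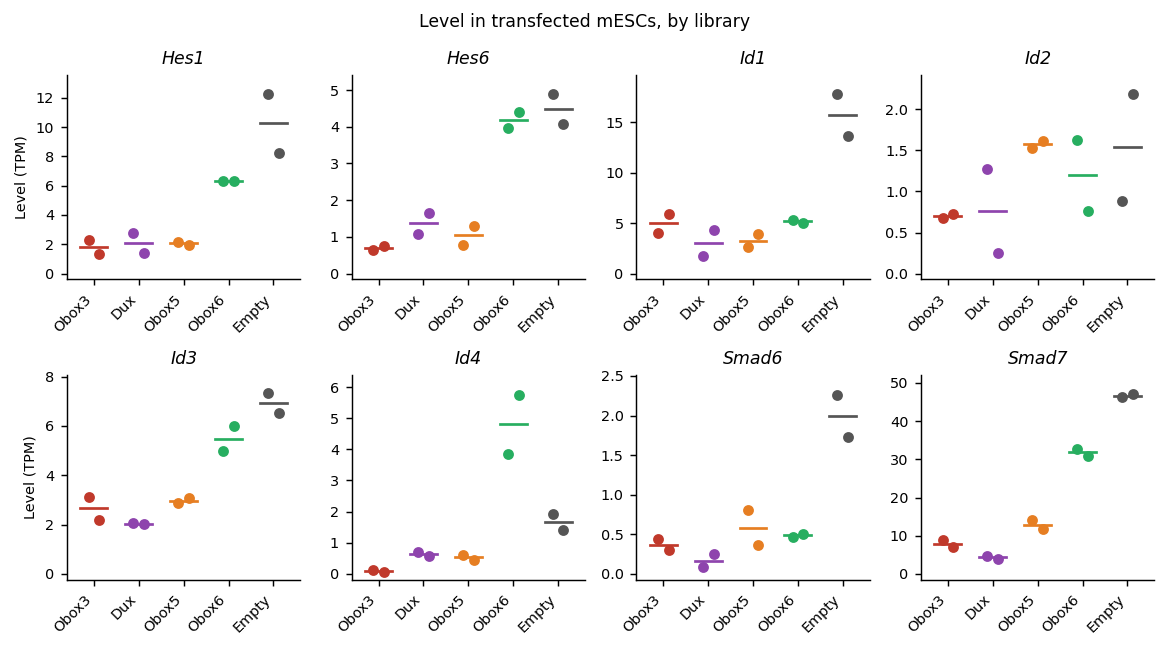
Level of each gene in TPM (vertical axes, from 0, each with its own scale) in the 5 replicated mESC groups, with a point per library and a line at the mean. Hes1, Hes6 and Smad7 lie low in Obox3, Dux and Obox5 and higher in Obox6 and Empty, and Id4 is highest in Obox6.

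Hes1 stood at 2.30 and 1.33 TPM in ES_Obox3, 2.77 and 1.38 in ES_Dux, 2.18 and 1.94 in ES_Obox5, 6.31 and 6.31 in ES_Obox6, and 12.3 and 8.26 in ES_Empty. The first 3 groups overlap each other and lie below ES_Obox6, which lies below ES_Empty. The fall against ES_Empty was -2.0 on the log2 scale in ES_Obox3 (SE 0.286, adjusted p = 0.00175), -1.89 in ES_Dux (adjusted p = 0.000708) and -1.86 in ES_Obox5 (adjusted p = 0.00396). In ES_Obox6 the difference was -0.60 and did not pass (adjusted p = 0.288). In reads, Hes1 rested on 20 and 20 in ES_Obox3 and 93 and 82 in ES_Empty. With median-ratio scaling the fold changes were -1.46 in ES_Obox3, -0.74 in ES_Dux (adjusted p = 0.103) and -1.53 in ES_Obox5.

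Hes6 stood at 0.648 and 0.750 TPM in ES_Obox3, 1.09 and 1.66 in ES_Dux, 0.775 and 1.31 in ES_Obox5, 3.97 and 4.39 in ES_Obox6, and 4.90 and 4.08 in ES_Empty. ES_Obox6 overlapped ES_Empty, and the other groups lay below both. The fall was -1.69 in ES_Obox3 (SE 0.221, adjusted p = 0.00118), -1.21 in ES_Dux (adjusted p = 0.00158) and -1.44 in ES_Obox5 (adjusted p = 0.00399). The ES_Obox6 difference was -0.08 (adjusted p = 0.89). Scaled, the ES_Dux value was -0.20 (adjusted p = 0.559), while the value was -1.21 in ES_Obox3 and -1.12 in ES_Obox5.

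Id1, the most abundant Id gene in ES_Empty, stood at 4.04 and 5.96 TPM in ES_Obox3, 1.70 and 4.31 in ES_Dux, 2.62 and 3.91 in ES_Obox5, 5.33 and 5.03 in ES_Obox6, and 17.8 and 13.6 in ES_Empty. No library of the 4 expressing groups reached the lower ES_Empty library. Id1 was the only one of the 8 genes called lower in all 4 groups, with -1.49 in ES_Obox3 (SE 0.332, adjusted p = 0.0119), -2.13 in ES_Dux (adjusted p = 0.0008), -1.98 in ES_Obox5 (adjusted p = 0.00598) and -1.42 in ES_Obox6 (adjusted p = 0.0455). Scaled, only the ES_Obox5 call held, at -1.64 (adjusted p = 0.0321), and the value was -0.89 in ES_Obox3, -0.93 in ES_Dux and -1.23 in ES_Obox6. Leaving out ES_Empty replicate 1 also ended the ES_Obox3 call (-1.30, adjusted p = 0.0794), as did leaving out ES_Obox3 replicate 1 (-1.25, adjusted p = 0.0505) or removing the 10 most abundant genes (-1.11, adjusted p = 0.0982). The ES_Obox6 call was lost on leaving out any 1 of 8 of the 10 libraries, with adjusted p up to 0.263.

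Id2, an early marker of trophectoderm in mouse blastocysts, stood at 0.672 and 0.723 TPM in ES_Obox3, 1.27 and 0.246 in ES_Dux, 1.53 and 1.62 in ES_Obox5, 1.62 and 0.766 in ES_Obox6, and 0.881 and 2.19 in ES_Empty. It passed the test in none of the comparisons among mESC groups. Both ES_Obox3 libraries lay below those of ES_Obox5, ES_Obox6 and ES_Empty and within the spread of ES_Dux, and both ES_Obox5 libraries lay above those of ES_Dux, while the other pairs of groups overlapped. The ES_Empty libraries rested on 8 and 26 reads.

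Id3 stood at 3.14 and 2.20 TPM in ES_Obox3, 2.05 and 2.01 in ES_Dux, 2.87 and 3.08 in ES_Obox5, 4.97 and 6.00 in ES_Obox6, and 7.35 and 6.53 in ES_Empty. The first 3 groups lay below ES_Obox6, and ES_Obox6 below ES_Empty. Against ES_Empty it fell, with log2 fold changes of -1.12 in ES_Obox3 (SE 0.195, adjusted p = 0.00417) and -1.39 in ES_Dux (adjusted p = 0.000538). In ES_Obox5 the value of -0.996 lay just short of the fold threshold (adjusted p = 0.0117), and in ES_Obox6 it was -0.29. Without ES_Obox3 replicate 3 the ES_Obox3 value was -0.94, with the 10 most abundant genes removed it was -0.82, and scaled it was -0.59, all under that threshold, and the scaled ES_Dux value was -0.26.

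Id4 was the gene with the lowest level in ES_Obox3 and the only one called higher in any expressing group. It stood at 0.122 and 0.0589 TPM in ES_Obox3, 0.697 and 0.589 in ES_Dux, 0.607 and 0.461 in ES_Obox5, 3.85 and 5.74 in ES_Obox6, and 1.93 and 1.40 in ES_Empty. ES_Obox6 lay above ES_Empty and ES_Obox3 below every other group, with no overlap on either side. In ES_Obox6 it rose by 1.11 on the log2 scale (SE 0.24, adjusted p = 0.0343). It fell in ES_Obox3, with -1.28 (SE 0.24, adjusted p = 0.00579). ES_Dux gave -0.69 (adjusted p = 0.0316) and ES_Obox5 gave -0.79 (adjusted p = 0.0597), neither called. The rise in ES_Obox6 remained called with median-ratio scaling (1.13, adjusted p = 0.022), but not after leaving out any 1 of 8 of the 10 libraries. Over all 10 such fits the log2 fold change was 0.87 to 1.35 and adjusted p reached 0.266. The fall in ES_Obox3 was -0.97 when scaled, under the fold threshold, and lost its call without ES_Empty replicate 1 (adjusted p = 0.0557).

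**Figure D2:**
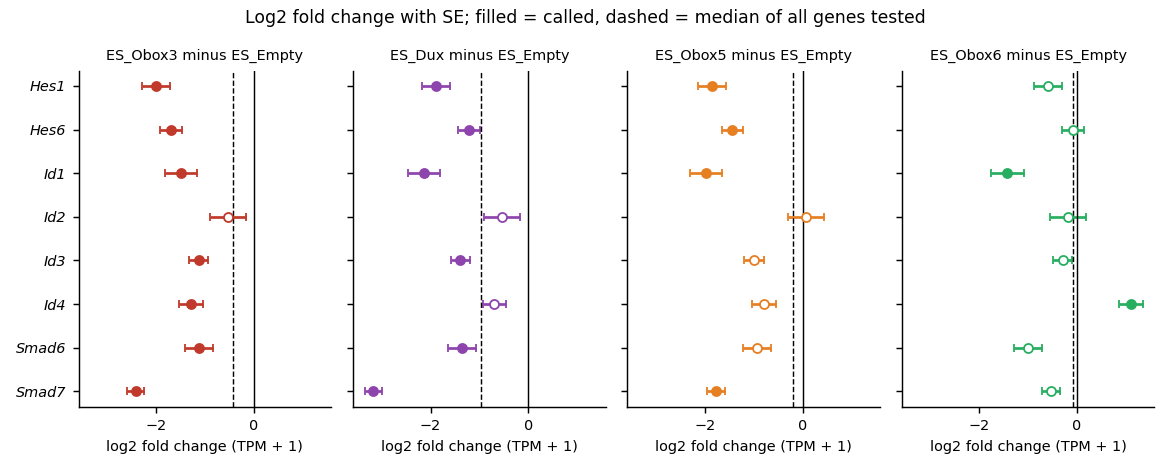
Log2 fold change against ES_Empty on the log2(TPM + 1) scale (horizontal axis) with its standard error, for each gene in the 4 replicated expressing groups. Filled points were called, and the dashed line is the median of all genes tested, from -0.97 in ES_Dux to -0.09 in ES_Obox6.

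Smad7, the most abundant of the 8 genes in ES_Empty, stood at 8.86 and 7.05 TPM in ES_Obox3, 4.68 and 3.94 in ES_Dux, 14.1 and 11.8 in ES_Obox5, 32.8 and 31.0 in ES_Obox6, and 46.3 and 47.0 in ES_Empty. The 5 groups did not overlap, and ES_Dux was lowest, followed by ES_Obox3, ES_Obox5, ES_Obox6 and ES_Empty. Its fall was -2.42 in ES_Obox3 (SE 0.182, adjusted p = 0.000113), -3.17 in ES_Dux (adjusted p = 1.22e-05) and -1.78 in ES_Obox5 (adjusted p = 0.000612), and -0.54 in ES_Obox6 (adjusted p = 0.144), not called. These rest on 171 and 235 reads in ES_Obox3 against 779.5 and 1036.5 in ES_Empty. Scaled, the fall remained called at -1.80 in ES_Obox3, -1.87 in ES_Dux and -1.46 in ES_Obox5.

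Smad6 stood at 0.438 and 0.296 TPM in ES_Obox3, 0.0881 and 0.25 in ES_Dux, 0.802 and 0.369 in ES_Obox5, 0.463 and 0.510 in ES_Obox6, and 2.26 and 1.73 in ES_Empty. All 8 replicated expressing libraries lay below both ES_Empty libraries, on 2 to 11 reads against 27 and 27. It fell, with log2 fold changes of -1.13 in ES_Obox3 (SE 0.286, adjusted p = 0.0193) and -1.36 in ES_Dux (adjusted p = 0.00321). The values of -0.93 in ES_Obox5 (adjusted p = 0.0634) and -1.01 in ES_Obox6 (adjusted p = 0.0888) did not pass. Scaled, it was -0.77 in ES_Obox3 and -0.86 in ES_Dux, under the fold threshold, and the ES_Obox3 call was also lost without ES_Obox3 replicate 3 (adjusted p = 0.0666). Without either ES_Empty library Smad6 was under the filter, so it was tested only through the group where it was high.

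Set directly against each other, ES_Obox3 and ES_Obox5 gave 0 called among the 8 genes. Few genes of any kind were called between them, 0.0393% higher and 0.0147% lower, and 2231 of 20355 had an unadjusted p under 0.05. Scaling also gave 0 among the 8, with 0.0688% of all genes higher and 0.0197% lower. The largest difference among the 8 was Smad7 at -0.64 (SE 0.182, adjusted p = 0.314). ES_Obox3 against ES_Dux also gave 0 called among the 8, with 20.3% of all genes called higher and 3.42% lower and 8948 at an unadjusted p under 0.05. There Smad7 differed by 0.75 (adjusted p = 0.0126), and with median-ratio scaling Hes6 (-1.01) and Id4 (-1.02, both adjusted p = 0.0103) were called lower in ES_Obox3, with 8.3% of all genes lower and 9.21% higher under that scaling. Against ES_Obox6, 4 of the 8 were lower in ES_Obox3, with 6.61% of all genes lower and 2.52% higher. They were Id4 (-2.39, SE 0.24, adjusted p = 0.000932), Smad7 (-1.88, SE 0.182, adjusted p = 0.000804), Hes6 (-1.61, adjusted p = 0.00362) and Hes1 (-1.40, adjusted p = 0.0175). Hes1 lost this call without ES_Obox6 replicate 1 (adjusted p = 0.0828) or replicate 2 (adjusted p = 0.0646), or without ES_Obox3 replicate 3 (adjusted p = 0.0869). All 4 remained called with scaling, where 2.63% of all genes were lower and 4.83% higher. The same 4 genes were lower in ES_Obox5 than in ES_Obox6, Id4 with -1.90, Smad7 with -1.25, Hes6 with -1.35 and Hes1 with -1.26, with 2% of all genes lower and 2.4% higher, and these calls also held with scaling, with 1.62% lower and 3.32% higher. Hes1 lost its call between ES_Obox5 and ES_Obox6 on leaving out any library of these groups, with adjusted p up to 0.193. Hes6 lost it without ES_Obox5 replicate 1 or either ES_Obox6 library (adjusted p up to 0.0876), and Smad7 without ES_Obox5 replicate 3 or ES_Obox6 replicate 1 (adjusted p up to 0.0706). ES_Obox6 against ES_Dux gave Hes1, Hes6, Id3, Id4 and Smad7 higher, 5 of the 8, and 0 lower, with 36.3% of all genes higher and 3.74% lower, and with scaling only Id4 (1.08) and Smad7 (1.5) remained, with 5.71% of all genes higher and 7.57% lower. As deposited, Hes1 was under the fold threshold without ES_Dux replicate 3 (0.95), Hes6 without ES_Dux replicate 1 (0.96) and Id3 without ES_Obox6 replicate 2 (0.98).

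The other genes of these pathways, 138 on 11 lists of which 86 were tested in mESCs, moved as follows. In ES_Obox3 38 were lower and 2 higher, where 13.6% of all genes were lower and 4.67% higher. In ES_Dux 56 were lower and 0 higher, where 44.4% of all genes were lower and 4.12% higher. In ES_Obox5 23 were lower and 2 higher, where 5.47% of all genes were lower and 4.79% higher. In ES_Obox6 9 were lower and 5 higher, where 1.99% of all genes were lower and 2.39% higher. With median-ratio scaling 20 were lower and 6 higher in ES_Obox3, 10 lower and 1 higher in ES_Dux, 15 lower and 3 higher in ES_Obox5, and 6 lower and 5 higher in ES_Obox6. The scaled shares of all genes lower were 3.75% in ES_Obox3, 2.14% in ES_Dux, 2.39% in ES_Obox5 and 1.32% in ES_Obox6. For ES_Dux, where the median of all genes lay lowest, the 10 lower when scaled were 4 inhibitors, 3 LIF and STAT3 genes, 2 ligands and 1 BMP target. In ES_Obox3 the scaled counts of lower genes were 7 for inhibitors, 3 for Notch ligands and receptors, 2 for BMP and TGF-beta receptors and 0 for SMAD transducers. The counts by list below are as deposited, and each stands against the shares of all genes just given. The lists were also chosen with earlier results known, so their counts in mESCs and embryos are descriptions only.

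Among BMP and TGF-beta ligands, 3 of 10 tested fell in ES_Obox3, with a list median of -0.89. Bmp4, the ligand that induces Id genes in mESCs, stood at 0.625 and 0.362 TPM in ES_Obox3, 0.624 and 2.55 in ES_Obox5, 1.43 and 0.831 in ES_Obox6, and 9.74 and 10.5 in ES_Empty. It fell in all 3 groups, with log2 fold changes of -2.90 in ES_Obox3 (adjusted p = 0.000938), -2.21 in ES_Obox5 (adjusted p = 0.00504) and -2.40 in ES_Obox6 (adjusted p = 0.00679). The activin subunit gene Inhbb fell (-2.59) in ES_Obox3, where it stood at 0.165 and 0.159 TPM, against 7.26 and 4.97 in ES_Empty. In ES_Dux 6 of 10 fell, led by Nodal at 4.31 and 2.39 TPM against 32.3 and 27.0 in ES_Empty (-2.85, adjusted p = 0.000149).

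Of 9 receptors tested, 5 fell in ES_Obox3, 4 in ES_Dux and 2 in ES_Obox5. The activin receptor gene Acvr1b stood at 1.80 and 1.6 TPM in ES_Obox3 against 10.4 and 7.94 in ES_Empty (-1.90, SE 0.231, adjusted p = 0.000871). In ES_Obox6 the BMP receptor gene Acvr1 rose, the only receptor called there, at 9.17 and 9.19 TPM against 1.67 and 1.61 in ES_Empty (1.95, SE 0.188, adjusted p = 0.00111). SMAD transducers fell in 3 of 5 in ES_Obox3 and 5 of 5 in ES_Dux, where 44.4% of all genes were lower, and with scaling 0 of 5 were called in either. In ES_Obox5 and in ES_Obox6 0 of 5 passed. Smad4, the shared partner of all SMADs, was -1.28 in ES_Obox3 (adjusted p = 0.0106), and with scaling -0.67 (adjusted p = 0.0767).

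Inhibitors of the SMAD pathway other than Smad6 and Smad7 fell in 8 of 12 in ES_Obox3, 11 of 12 in ES_Dux, 7 of 12 in ES_Obox5 and 3 of 12 in ES_Obox6. The list median was -1.95 in ES_Obox3, against -0.42 for all genes, and -1.58 in ES_Obox5, against -0.20. The Nodal antagonist gene Lefty2 stood at 1.70 and 0.649 TPM in ES_Obox3, 3.19 and 3.37 in ES_Dux, 2.42 and 2.19 in ES_Obox5, and 21.6 and 19.2 in ES_Empty. Its log2 fold change was -3.34 in ES_Obox3, -2.32 in ES_Dux and -2.70 in ES_Obox5. BMP targets did not share a direction, with 2 higher and 2 lower of 6 tested in ES_Obox3 and in ES_Obox5. Msx2 stood at 4.79 and 4.14 TPM in ES_Obox3 and 3.49 and 4.63 in ES_Obox5, against 0.573 and 0.375 in ES_Empty, and rose by 1.89 in ES_Obox3 and 1.77 in ES_Obox5. Hand1, at 3.87 and 2.65 TPM in ES_Obox3, was listed at 0 in both ES_Empty libraries, while Dusp9 (-2.24) and the stem cell factor gene Tbx3 (-1.47, and -0.85 scaled, under the fold threshold) fell.

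Of 8 Notch ligand and receptor genes tested, 5 fell in ES_Obox3, 4 in ES_Dux and 4 in ES_Obox5. The ligand gene Jag1 stood at 0.402 and 0.372 TPM in ES_Obox3, 0.642 and 0.440 in ES_Obox5, and 4.19 and 3.66 in ES_Empty, with log2 fold changes of -1.83 in ES_Obox3 and -1.68 in ES_Obox5. Notch1 stood at 1.30 and 0.974 TPM in ES_Obox3 against 6.57 and 5.73 in ES_Empty (-1.74, adjusted p = 0.000694). In ES_Obox6 Jag1 fell (-1.14) and the ligand gene Dll1 rose (1.10), near the floor, and with scaling both were under the fold threshold (-0.92 for Jag1 and 0.985 for Dll1). Of 10 genes that process Notch or act with it in the nucleus, Adam10 alone fell in ES_Obox3 (-1.14, and -0.63 scaled), and 0 passed in ES_Obox5 and in ES_Obox6. Rbpj, the DNA-binding partner of Notch, was among the 7 that fell in ES_Dux (-1.86, and -0.55 scaled). Groucho corepressors fell in 2 of 5 in ES_Obox3, Tle3 (-1.67, and -1.10 scaled) and Tle5 (-1.50, and -0.88 scaled, under the fold threshold). They fell in 5 of 5 in ES_Dux, where 44.4% of all genes were lower, and 0 of these remained called with scaling. Tcf3, which encodes the E proteins E12 and E47, was among the 2 of 6 bHLH genes that fell in ES_Obox3, at 23.9 and 16.1 TPM against 54.5 and 48.2 in ES_Empty (-1.34, and -0.72 scaled). Of 3 Hes and Hey relatives or Notch targets tested, Bhlhe40 fell in ES_Obox3 (-1.11) and in ES_Dux (-1.02, beside a median of -0.97 over all genes). Both calls were lost with scaling, at -0.73 in ES_Obox3 and -0.24 (adjusted p = 0.361) in ES_Dux.

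LIF and STAT3 genes fell in 6 of 12 in ES_Obox3, 10 of 12 in ES_Dux and 5 of 12 in ES_Obox5. The LIF receptor subunit gene Il6st stood at 2.05 and 0.904 TPM in ES_Obox3 against 8.54 and 6.69 in ES_Empty (-1.83, adjusted p = 0.00156). In ES_Obox6 the feedback inhibitor gene Socs3 rose (1.002, adjusted p = 0.0302), and Stat3 (-1.23) and Il6st (-1.15, and -0.95 scaled, under the fold threshold) fell.

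Each of the other 9 constructs had 1 library, so their values carry no test. Hes1 was 5.94 TPM in ES_Obox8 and 10.3 to 18.5 in the other 8, against 12.3 and 8.26 in ES_Empty. None of these libraries came near the 1.33 to 2.77 TPM of ES_Obox3, ES_Dux and ES_Obox5. Smad7 was 15.1 TPM in ES_Obox8 and 35.1 to 64.1 in the other 8, the top value in ES_Obox4ps27. Hes6 ran from 3.19 TPM in ES_Crxos2 to 6.77 in ES_Crxos1.

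ES_Obox8 stood apart in several genes. There Id2 was 7.65 TPM, the highest of all 19 mESC libraries and 4.99 times the ES_Empty mean, Smad6 was 4.22 TPM, 2.12 times that mean, and Smad7 was 0.323 times it. Its stem cell markers summed to 1499 TPM. In ES_Obox4ps27 Id1 was 5.29 TPM, in the range of the 4 replicated expressing groups, while the other 8 libraries had 13.9 to 22.3, and Id3 was highest of the 9 there at 10.4. Id4 was lowest in ES_Obox4ps35, at 0.434 TPM, and highest in the 3 Crxos libraries, at 2.37, 2.62 and 2.79.

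**Figure D3:**
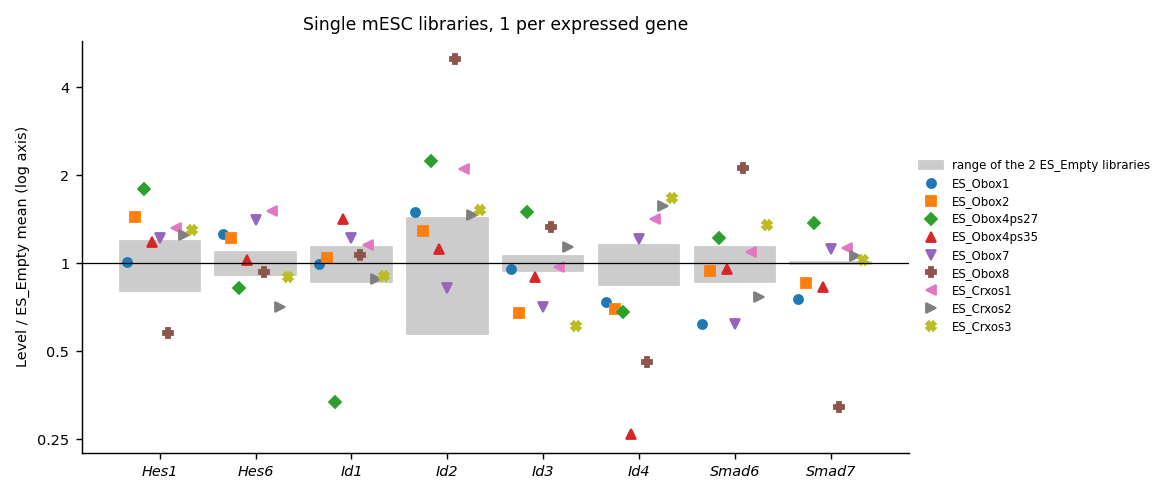
Level in each single mESC library divided by the ES_Empty mean (vertical log axis), for each gene, with a grey band over the range of the 2 ES_Empty libraries. Most points lie near 1, and the ES_Obox8 library is low for Hes1 and Smad7 and high for Id2 and Smad6.

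Over all 19 mESC libraries, Hes1 and Smad7 were the pair of the 8 genes whose log2 levels ran most alike, with r = 0.867 after median-ratio scaling and 0.932 as deposited. Hes1 and Hes6 had r = 0.756 after scaling and 0.876 as deposited, and Id1 and Id4 had -0.03 after scaling and 0.27 as deposited. Among 15136 genes, the levels most like Hes1 after scaling were those of Ptgfrn (r = 0.948), Dab2ip (0.943) and Tacc2 (0.940). Those most like Smad7 were Ahdc1 (0.952), Ankhd1 (0.937) and Sox4 (0.937), and those most like Id4 were Trh (0.906), Chmp4c (0.898) and Paxip1 (0.884). Hes6 ran most like Jade2 (0.932), Id1 like Utrn (0.883), Smad6 like Med13l (0.894), Id3 like Gclm (0.807) and Id2 like Gm49251 (0.762). These are descriptions over libraries that include the compared groups and share their composition.

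In embryos, Id1 was low and Hes1 and Id2 high in SCNT embryos given EGFP mRNA, relative to ICSI embryos, and Hes1 was near the ICSI level in SCNT embryos given Obox3 mRNA. Of 7 genes tested, 5 were called between SCNT_EGFP_L2C and ICSI_L2C, 3 higher and 2 lower, where 4.8% of the 18252 genes tested were higher and 12.5% lower. Between SCNT_Obox3_L2C and ICSI_L2C 2 were lower and 0 higher, where 6.31% of all genes were lower and 2.8% higher. Id4, counted as lower in both, reached 1 TPM only in ICSI_L2C, and Id3, counted as higher in the first, only in SCNT libraries. They entered the test through the groups where they were high, so their calls add no support to these counts. Between SCNT_Obox3_L2C and SCNT_EGFP_L2C 1 was lower, where 0.0438% of all genes were lower and 0.11% higher. With any 1 library left out, the share lower was 6.8 to 12.7% in SCNT_EGFP_L2C against ICSI_L2C, lowest without SCNT_EGFP_L2C replicate 1, and 1.78 to 6.22% in SCNT_Obox3_L2C against ICSI_L2C, lowest without ICSI_L2C replicate 1. With median-ratio scaling the same genes were called in each comparison. All genes then gave 6.1% higher and 8.82% lower in SCNT_EGFP_L2C against ICSI_L2C, 3.85% lower and 4.05% higher in SCNT_Obox3_L2C against ICSI_L2C, and 0.175% lower and 1.41% higher in SCNT_Obox3_L2C against SCNT_EGFP_L2C. Smad6 stayed under the filter of 1 TPM in 2 libraries, at 0.157 and 0.0791 TPM in SCNT_Obox3_L2C and 0.194 and 0.153 in SCNT_EGFP_L2C, and was listed at 0 in ICSI_L2C.

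Hes1 stood at 1.55 and 0.933 TPM in SCNT_Obox3_L2C, 15.9 and 10.3 in SCNT_EGFP_L2C, and 1.32 and 1.55 in ICSI_L2C. Both EGFP libraries lay above the other 4, which overlapped. The reads were 44 and 15 in SCNT_Obox3_L2C, 313 and 214 in SCNT_EGFP_L2C, and 20 and 16 in ICSI_L2C. Hes1 rose by 2.50 in SCNT_EGFP_L2C against ICSI_L2C (SE 0.287, adjusted p = 0.00361). It fell by 2.64 on the log2 scale in SCNT_Obox3_L2C against SCNT_EGFP_L2C (SE 0.287, adjusted p = 0.0462), and against ICSI_L2C it differed by -0.13 (SE 0.287, adjusted p = 0.788). On leaving out any 1 of the 6 libraries the fold change between the SCNT groups was -2.93 to -2.34. The call was lost in these fits, in which few or no genes of any kind were called. It was also lost with the 10 most abundant genes removed (adjusted p = 0.0611), where 23 of all 18242 genes were higher and 5 lower. It held with median-ratio scaling, at -2.63 (adjusted p = 0.0374).

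**Figure D4:**
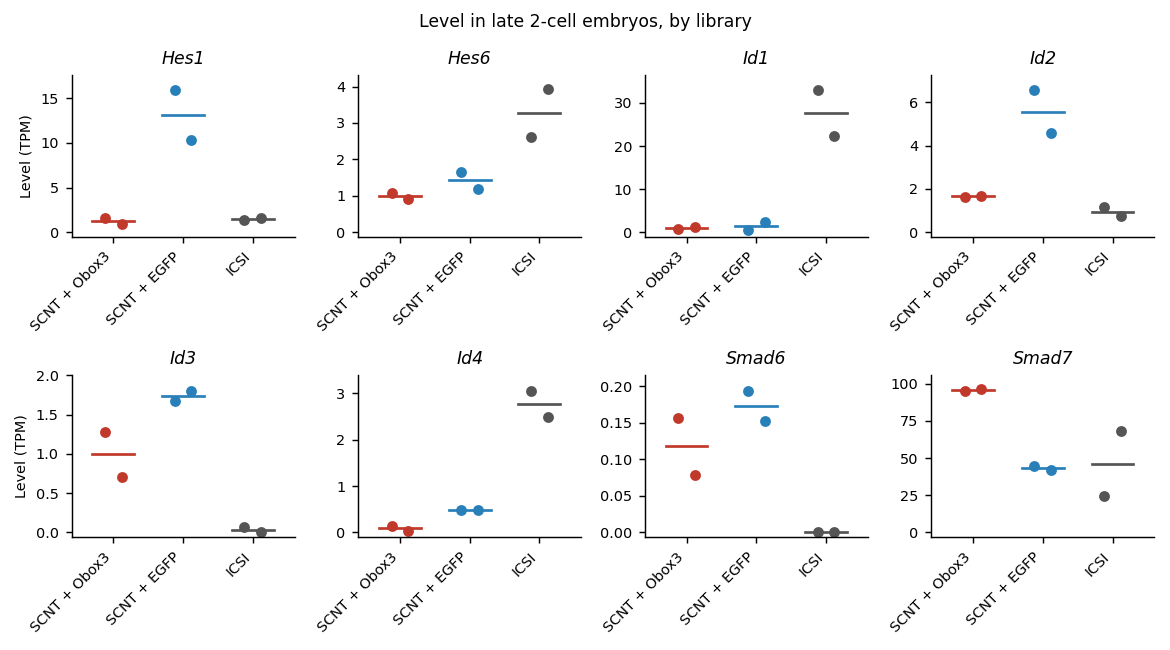
Level of each gene in TPM (vertical axes, from 0, each with its own scale) in the 3 groups of late 2-cell embryos, with a point per library and a line at the mean. Hes1 and Id2 are highest in SCNT + EGFP, Id1 and Id4 in ICSI, and Smad7 in SCNT + Obox3.

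Hes6 stood at 1.07 and 0.911 TPM in SCNT_Obox3_L2C, 1.66 and 1.19 in SCNT_EGFP_L2C, and 2.61 and 3.93 in ICSI_L2C. The groups did not overlap, but no difference passed. Against ICSI_L2C it was -1.08 in SCNT_Obox3_L2C (adjusted p = 0.0523) and -0.81 in SCNT_EGFP_L2C (adjusted p = 0.0801), and between the SCNT groups it was -0.28 (adjusted p = 0.642).

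Id1 stood at 0.804 and 1.20 TPM in SCNT_Obox3_L2C, 0.446 and 2.44 in SCNT_EGFP_L2C, and 32.9 and 22.3 in ICSI_L2C. The SCNT groups overlapped, far below both ICSI libraries, on 13 and 11 reads in SCNT_Obox3_L2C, 5 and 29 in SCNT_EGFP_L2C, and 283 and 131 in ICSI_L2C. It fell against ICSI_L2C, with log2 fold changes of -3.82 in SCNT_Obox3_L2C (SE 0.437, adjusted p = 0.00875) and -3.65 in SCNT_EGFP_L2C (SE 0.437, adjusted p = 0.00405). Between the SCNT groups the difference was -0.16 (SE 0.437, adjusted p = 0.879). These calls against ICSI_L2C held without any 1 library.

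Id2 stood at 1.65 and 1.66 TPM in SCNT_Obox3_L2C, 6.58 and 4.57 in SCNT_EGFP_L2C, and 1.16 and 0.729 in ICSI_L2C. The 3 groups did not overlap. Id2 rose by 1.75 in SCNT_EGFP_L2C against ICSI_L2C (SE 0.267, adjusted p = 0.0073), a call lost without SCNT_EGFP_L2C replicate 1 (1.53, adjusted p = 0.0532). The difference of SCNT_Obox3_L2C was -1.29 against SCNT_EGFP_L2C (SE 0.267, adjusted p = 0.0986) and 0.46 against ICSI_L2C (adjusted p = 0.298), neither of which passed.

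Id3 stood at 1.28 and 0.707 TPM in SCNT_Obox3_L2C, 1.68 and 1.80 in SCNT_EGFP_L2C, and 0.0753 and 0 in ICSI_L2C, where it rested on 1 and 0 reads. It rose by 1.40 in SCNT_EGFP_L2C against ICSI_L2C (SE 0.318, adjusted p = 0.024), and the call was lost without any 1 of the 4 libraries compared (adjusted p = 0.0710 to 0.115). The 0.93 of SCNT_Obox3_L2C against ICSI_L2C did not pass (adjusted p = 0.108).

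Id4 stood at 0.143 and 0.0329 TPM in SCNT_Obox3_L2C, 0.489 and 0.483 in SCNT_EGFP_L2C, and 3.05 and 2.49 in ICSI_L2C. The groups did not overlap. It fell against ICSI_L2C, with log2 fold changes of -1.79 in SCNT_Obox3_L2C (SE 0.297, adjusted p = 0.0172) and -1.34 in SCNT_EGFP_L2C (SE 0.297, adjusted p = 0.0223). The first call was lost without either SCNT_Obox3_L2C library (adjusted p up to 0.0794) and the second without either SCNT_EGFP_L2C library (adjusted p up to 0.0961) or with the 10 most abundant genes removed (-1.52, adjusted p = 0.0819), and Id4 was under the filter without either ICSI_L2C library.

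The makeup of the Id family in each library was as follows. Id1 was 20.7 and 33.3% of the summed Id TPM in SCNT_Obox3_L2C, 4.85 and 26.3% in SCNT_EGFP_L2C, and 88.5 and 87.4% in ICSI_L2C. Id2 was 42.5 and 46.1% of it in SCNT_Obox3_L2C, 71.6 and 49.2% in SCNT_EGFP_L2C, and 3.12 and 2.86% in ICSI_L2C. The sum itself was 3.88 and 3.6 TPM in SCNT_Obox3_L2C, 9.19 and 9.30 in SCNT_EGFP_L2C, and 37.2 and 25.5 in ICSI_L2C. In mESCs Id4 was 24.4 and 32.7% of the sum in ES_Obox6, against 6.90 and 5.91% in ES_Empty. Shares of a sum move together, so a gain of 1 gene lowers the share of the others.

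**Figure D5:**
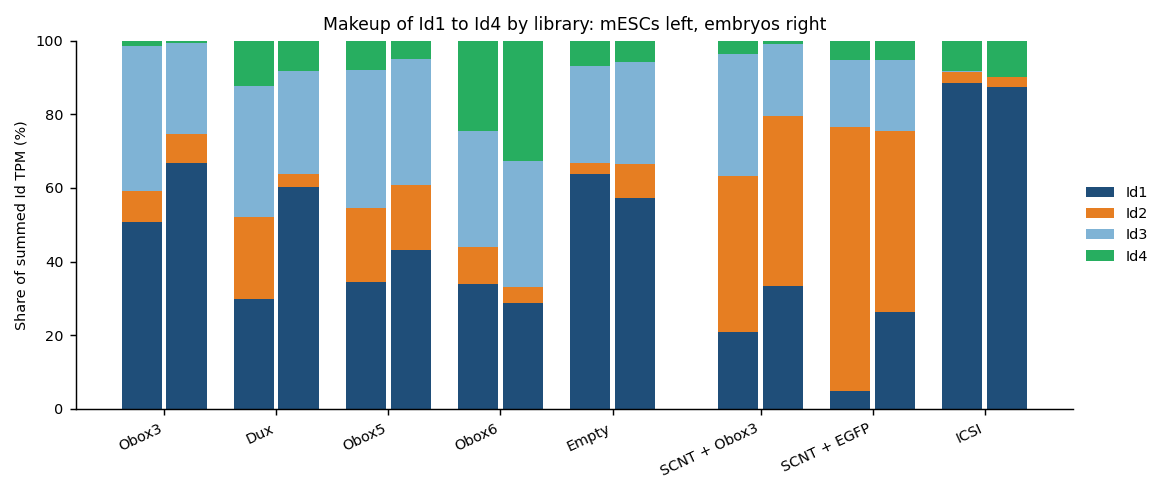
Share of the summed Id1 to Id4 TPM taken by each gene (vertical axis, percent), with 1 bar per library. Id1 takes 88.5 and 87.4% in ICSI embryos, Id2 leads in both SCNT groups, and Id4 is widest in Obox6 mESCs.

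Smad7 stood at 95.2 and 96.3 TPM in SCNT_Obox3_L2C, 44.9 and 41.7 in SCNT_EGFP_L2C, and 24.4 and 68.1 in ICSI_L2C. Both Obox3 libraries lay above all others, and the ICSI libraries lay on either side of the EGFP ones. The difference of SCNT_Obox3_L2C was 1.13 against SCNT_EGFP_L2C (SE 0.436, adjusted p = 0.251) and 1.21 against ICSI_L2C (adjusted p = 0.126), and neither passed. Without ICSI_L2C replicate 2 the difference against ICSI_L2C was 1.93 and was called (adjusted p = 0.032).

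Of the other pathway genes, 81 were tested in embryos. Between SCNT_Obox3_L2C and SCNT_EGFP_L2C 0 of them were called, where 3294 of all 18252 genes had an unadjusted p under 0.05. With median-ratio scaling 2 were called higher. Between SCNT_EGFP_L2C and ICSI_L2C 7 were higher and 7 lower (7 and 6 with scaling), where 4.8% of all genes were higher and 12.5% lower. Between SCNT_Obox3_L2C and ICSI_L2C 2 were higher and 7 lower (3 and 5 with scaling), where 2.8% of all genes were higher and 6.31% lower. BMP targets fell in 3 of 6 in both SCNT groups against ICSI_L2C. With scaling, Dlx3 (adjusted p = 0.0516) and Msx1 (adjusted p = 0.0613) lost their calls in SCNT_Obox3_L2C, which left Tbx3, and Gata2 (adjusted p = 0.0544) lost its call in SCNT_EGFP_L2C, which left Tbx3 and Dlx3. Tbx3 stood at 0.699 and 1.13 TPM in SCNT_Obox3_L2C, 0.907 and 0.864 in SCNT_EGFP_L2C, and 29.5 and 41.2 in ICSI_L2C, with log2 fold changes of -4.24 in SCNT_Obox3_L2C and -4.25 in SCNT_EGFP_L2C. Bambi, a decoy receptor gene induced by BMP, stood at 1.12 and 1.75 TPM in SCNT_Obox3_L2C, 1.88 and 2.62 in SCNT_EGFP_L2C, and 17.1 and 10.7 in ICSI_L2C, with log2 fold changes of -2.59 in SCNT_Obox3_L2C and -2.17 in SCNT_EGFP_L2C. In contrast, Skil, which encodes the SMAD corepressor SnoN, stood at 8.98 and 8.19 TPM in SCNT_Obox3_L2C, 16.2 and 12.6 in SCNT_EGFP_L2C, and 0.515 and 1.59 in ICSI_L2C, and rose by 2.27 in SCNT_Obox3_L2C and 2.95 in SCNT_EGFP_L2C. The Notch feedback gene Nrarp stood at 0.459 and 0.188 TPM in SCNT_Obox3_L2C, 1.16 and 1.19 in SCNT_EGFP_L2C, and 4.34 and 4.78 in ICSI_L2C, with log2 fold changes of -2.08 in SCNT_Obox3_L2C and -1.35 in SCNT_EGFP_L2C. Among Groucho corepressors, Tle4 fell in SCNT_Obox3_L2C (-1.44) and in SCNT_EGFP_L2C (-1.55), while Tle3 (1.66) and Tle1 (1.58) rose in SCNT_EGFP_L2C.

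Beside these, 12 cumulus and granulosa markers, the donor cell type, summed to 20.1 to 20.8 TPM in SCNT_Obox3_L2C, 11.8 to 14.6 in SCNT_EGFP_L2C and 24.7 to 28.7 in ICSI_L2C. Most of each sum was Amhr2, and Foxl2, Fshr and Ptx3 were at 0 in ICSI_L2C and Fshr and Ptx3 in SCNT_EGFP_L2C. The 10 late 2-cell genes summed to 300.7 to 424.9 TPM in SCNT_Obox3_L2C, 220.4 to 309.9 in SCNT_EGFP_L2C and 671.7 to 891.6 in ICSI_L2C, and all were detected in each group. The 10 oocyte genes, led by Bmp15 and all at 1 TPM or more on average, summed to 424.0 to 434.1 TPM in SCNT_Obox3_L2C, 494.9 to 541.0 in SCNT_EGFP_L2C and 631.1 to 695.5 in ICSI_L2C. The 6 trophoblast genes summed to 13.6 to 14.8 TPM in SCNT_Obox3_L2C, 9.06 to 14.6 in SCNT_EGFP_L2C and 46.3 to 56.8 in ICSI_L2C, mostly Tfap2c in ICSI_L2C. Cdx2 was at 0 in all 3 groups, and the part of these markers in the differences was not tested.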

How the data were processed

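The deposited values were TPM per gene in 2 tables, for mESC and for embryo libraries, made by the authors from total RNA with a stranded SMART-seq kit per the labels' protocols. HISAT2, Trim Galore and featureCounts 1.6.5 and the mm10 genome are named in the submitters' processing notes, with no steps given. Of 88 samples 25 libraries were used, and the other 63 were not analysed here. Columns were matched to samples by name. The second column of ES_Obox3, ES_Dux and ES_Obox5 is numbered 3, while the labels number these samples 1 and 2, so these 3 columns were tied to their group only and are called replicate 3 here.

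TPM were transformed as log2(TPM + 1), which understates changes of low genes. Genes with 1 TPM or more in 2 fitted libraries were tested with limma 3.58.1 (R 4.3.3, statmod 1.5.0), trended and robust moderation, 1 fit per table over the groups compared, and Benjamini-Hochberg adjustment over all genes. The fit was tested on simulated data. The 2 tables were normalized separately, so levels were compared within a table only. TPM do not show depth directly. Reads were worked out from the value of 1 read on short genes, with steps of 0.5 reads accepted within 0.02, and 1 TPM on a 1-kb gene was worth 2.27 to 7.37 reads in mESCs and 5.06 to 13.9 in embryos. Reads could not be worked out for Id4. Replicates of a group correlated at r = 0.951 to 0.971 over genes, and no pair of libraries was identical.

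Alternatives were median-ratio scaling, removal of the 10 most abundant genes, a pseudocount of 0.1, no filter and a filter at 5 TPM, plain moderation, fits of 2 groups, no minimum fold change, a replicate block, and leaving out each library. The 8 genes were always named. Pathway genes were named as up to 3 per list, direction and comparison with the largest change among those called, and similar genes as the 3 with the highest Pearson correlation. The genes and lists were chosen with earlier results of these data known.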

Additional observations from a re-analysis of the deposited data

Results flagged for a closer look

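Smad7 levels lay on opposite sides of their controls in the libraries of the 2 systems that were given Obox3. Its log2 fold change was -2.42 in ES_Obox3 against ES_Empty, where both ES_Obox3 libraries lay below both ES_Empty libraries. It was 1.13 in SCNT_Obox3_L2C against SCNT_EGFP_L2C, where both Obox3 libraries lay above both EGFP libraries, and this value did not pass the test (adjusted p = 0.251 in limma). The difference between the 2 effects was not tested, since the tables were normalized separately.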

How the results depend on the processing

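Counts of the 8 genes called, with any 1 library left out, ran from 4 to 7 in ES_Obox3 against ES_Empty, 5 to 6 in ES_Dux, 4 to 4 in ES_Obox5 and 0 to 1 in ES_Obox6. They ran from 0 to 1 in ES_Obox3 against ES_Dux, 0 to 0 against ES_Obox5 and 3 to 5 against ES_Obox6, 1 to 4 in ES_Obox5 against ES_Obox6 and 4 to 5 in ES_Obox6 against ES_Dux. In embryos they ran from 0 to 0 in SCNT_Obox3_L2C against SCNT_EGFP_L2C, 2 to 5 in SCNT_EGFP_L2C against ICSI_L2C and 1 to 2 in SCNT_Obox3_L2C against ICSI_L2C. These fits leave 1 library in a group, and the share of all genes called moved in them too. Without either ES_Empty library 7 of the 8 genes were tested in mESCs, and without either ICSI_L2C library 6 in embryos. Median-ratio scaling gave 3 in ES_Obox3 against ES_Empty, 1 in ES_Dux, 1 in ES_Obox6, 2 in ES_Obox3 against ES_Dux and 2 in ES_Obox6 against ES_Dux. A filter at 5 TPM left 4 of the 8 genes tested in mESCs and 3 in embryos. It called 4 lower in ES_Obox3 and 1 lower in ES_Obox6 against ES_Empty, where 1853 and 318 of all 10158 genes were lower. Against ES_Obox6 it called 2 lower in ES_Obox3 and 2 in ES_Obox5, where 893 and 261 were lower. In ES_Obox6 against ES_Dux it called 3 higher, where 5161 were higher. Against ICSI_L2C it called 2 in SCNT_EGFP_L2C and 1 in SCNT_Obox3_L2C. There 1916 and 997 of all 9954 genes were lower and 438 and 377 higher. Removing the 10 most abundant genes gave 5 lower in ES_Obox3 (without Id1 and Id3) against ES_Empty, where 1488 of all 20345 genes were lower. In ES_Obox6 against ES_Empty it gave 1 higher, where 673 were higher. It gave 3 higher and 1 lower in SCNT_EGFP_L2C against ICSI_L2C (without Id4), where 1926 of all 18242 genes were higher and 1111 lower. Against ES_Dux it gave 1 lower in ES_Obox3, where 927 were lower, and 3 higher in ES_Obox6, where 5006 were higher. For ES_Obox6 against ES_Empty a pseudocount of 0.1 gave 0, where 469 of all 20355 genes were higher and 312 lower. No filter gave 0, where 345 of all 47013 were higher and 222 lower. A fit of 2 groups gave 1 lower, where 265 of all 17142 were lower. For ES_Obox3 against ES_Dux a pseudocount of 0.1 gave 1 lower, where 720 of all 20355 genes were lower. With no minimum fold change 1 was higher there, where 6167 were higher. Hes1 was the only one of the 8 genes called between the SCNT groups, where 20 of all 18252 genes were higher and 8 lower. With the 10 most abundant genes removed 0 of the 8 were called, where 23 of all 18242 genes were higher and 5 lower. With no filter, plain moderation or a fit of 2 groups 0 were called as well. Over all genes no filter then gave 0 of 35503, plain moderation 1 of 18252 higher and 2 lower, and a fit of 2 groups 0 of 16538. The cause was not tested.

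Same-numbered libraries correlated in their deviations from group means over genes at r = 0.0457 between ES_Obox6 and ES_Empty (numbers 1 and 2), -0.0145 to 0.0350 among ES_Obox3, ES_Dux and ES_Obox5 (numbers 1 and 3) and 0.0140 to 0.0666 in embryos, so the numbers were not taken to pair the samples. In all 3 groups with a replicate 3, that library lay above replicate 1 for Hes6 and Id1 and below it for Hes1, Id4 and Smad7. The replicate block used the 7 mESC libraries whose number stands in the labels, which leaves 1 library each in ES_Obox3, ES_Dux and ES_Obox5. Calls that involve those groups are therefore not counted. The median log2 fold change of the 8 genes was then -1.48 in ES_Obox3 and -1.33 in ES_Obox5 against ES_Empty. It was -0.95 in ES_Obox3 and -1.01 in ES_Obox5 against ES_Obox6. In ES_Obox6 against ES_Dux it was 1.19, beside 0.99 over all genes. In ES_Obox6 against ES_Empty 0 of the 8 were called, with 0 of all 19159 genes. Between the SCNT groups 0 were called, with 0 of all 18252 genes. A block by column number over all 10 mESC libraries, added after seeing the data, gave 1 in ES_Obox6 against ES_Empty, where Id4 lost its call (adjusted p = 0.0770). It also ended the calls of Smad6 in ES_Obox3 against ES_Empty (adjusted p = 0.0772) and of Hes1 in ES_Obox3 (adjusted p = 0.0501) and ES_Obox5 (adjusted p = 0.102) against ES_Obox6, and Id1 was then called in ES_Obox6 against ES_Dux (1.13).

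Values that changed sign were called under neither setting. With median-ratio scaling they were, against ES_Empty, Id2 (0.16) and Id4 (0.050) in ES_Dux and Hes6 (0.055) in ES_Obox6. In ES_Obox3 they were Id2 (-0.35) and Id3 (-0.34) against ES_Dux, Hes1 (0.064) and Id3 (0.11) against ES_Obox5, and Id1 (0.34) and Smad6 (0.0099) against ES_Obox6. In ES_Obox6 against ES_Dux they were Id1 (-0.30) and Id2 (-0.25), and in SCNT_Obox3_L2C against ICSI_L2C Hes1 (0.016). Without the 10 most abundant genes, Hes1 (0.11) and Id3 (0.16) turned in ES_Obox3 against ES_Obox5, Id1 (0.38) and Smad6 (0.024) against ES_Obox6, and Hes1 (0.094) in SCNT_Obox3_L2C against ICSI_L2C. Under the block, Id2 turned in ES_Obox3 (-0.44) and ES_Obox6 (-0.13) against ES_Dux, and Hes1 (0.054) and Id3 (0.10) in ES_Obox3 against ES_Obox5. With 1 library left out, Id2 ran from -0.31 to 0.45 in ES_Obox5 and -0.57 to 0.19 in ES_Obox6 against ES_Empty, and Hes6 from -0.19 to 0.026 in ES_Obox6. In ES_Obox3, Hes1 ran from -0.44 to 0.22 and Id2 from -0.42 to 0.45 against ES_Dux, Hes1 from -0.39 to 0.11 and Id3 from -0.31 to 0.058 against ES_Obox5, and Id1 from -0.29 to 0.17 against ES_Obox6. Id2 ran from -0.026 to 0.54 and Smad6 from -0.12 to 0.28 in ES_Obox5 against ES_Obox6, and Id2 from -0.079 to 0.79 in ES_Obox6 against ES_Dux. In embryos Id1 ran from -0.79 to 0.46 between the SCNT groups, Smad7 from -0.64 to 0.80 in SCNT_EGFP_L2C and Hes1 from -0.33 to 0.067 in SCNT_Obox3_L2C against ICSI_L2C. Of 1670 values for the 8 genes under an alternative, 38 changed sign. That total includes fits with no minimum fold change, which cannot change a sign. As deposited, 40 of 93 tested values were called. With median-ratio scaling 13 of the 93 lost a call, 2 gained one and 12 changed sign. With the 10 most abundant genes removed 7 lost a call, 1 gained one and 5 changed sign.

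Over all genes, scaling moved the split between higher and lower calls. In ES_Obox3 against ES_Empty it was 1582 higher and 764 lower when scaled, against 951 and 2770 as deposited, and in ES_Dux 1421 and 435, against 838 and 9029. In ES_Obox5 it was 1240 and 487, against 974 and 1114, and in ES_Obox6 569 and 268, against 486 and 406. With any 1 library left out, 440 to 2257 of all genes were lower in ES_Obox3 against ES_Obox6 and 133 to 453 in ES_Obox5 against ES_Obox6. Of 19 mESC libraries, 16 had under 30 reads for Id2, 16 for Smad6 and 11 for Hes6, and reads could not be worked out for Id4.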
